A study of Mus musculus with 4 samples.

Results

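The genes described here are the subunits of the transcription factor NF-κB and 5 genes grouped as its inhibitors, read in bone marrow-derived macrophages (BMDMs). They were taken by symbol from the deposited expression table, namely Nfkb1, Nfkb2, Rela, Relb and Rel as subunits and Nfkbia, Nfkbib, Nfkbie, Nfkbiz and Tnfaip3 as inhibitors, and all 10 were among the 16375 genes listed. Bone marrow cells of WT mice and of *lncLy6c* KO (LNCKO) mice were grown into macrophages with M-CSF and cultured for 24 h with 500 µM butyrate or without it. This gave 4 groups of 1 library each, which are WT control and WT butyrate on one side and LNCKO control and LNCKO butyrate on the other, and values of all 4 are given in that order unless stated. The LNCKO line, on a C57BL/6J background, carries a deletion of the long non-coding RNA *lncLy6c* made with CRISPR-Cas9 in zygotes, and all 4 groups were grown in the same M-CSF medium. The methods list C57BL/6 mice of either sex, obtained at 4 to 6 weeks of age, but which strain the WT animals of these cultures had, how many animals gave each library, and the age and sex of those used, are not given in the sources used here. Comparisons asked whether these genes differed with butyrate within a genotype and between genotypes at each treatment.

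NF-κB is a family of dimeric transcription factors that is held in the cytoplasm by IκB proteins and is released when IκB kinases mark these for degradation. In the canonical pathway, RelA or c-Rel pairs with p50, the product of Nfkb1, while the non-canonical pathway runs through RelB and p52, the product of Nfkb2. Macrophages use the family to switch on cytokine and chemokine genes after contact with microbes, and several of its inhibitors, including IκBα and A20, are themselves NF-κB targets, which closes a negative feedback loop.

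Library totals, recovered from the deposited FPKM (fragments normalised to gene length in kilobases and to 1000000 fragments of the library), lay between 53363944 and 65521714 fragments. With 1 library per group no difference could be tested against the spread between cultures, so each ratio carries only an exact 95% interval for counting error (Clopper-Pearson), which leaves out the variation between cultures. All 10 macrophage identity genes, such as Csf1r and Adgre1, were well above the filter used, and their summed level was 15519 and 20462 fragments per 1000000 in WT without and with butyrate and 13394 and 9696 in LNCKO. Most of this difference came from Lyz2, the gene of lysozyme M, at 9842, 14329, 8033 and 4341, and the other 9 genes summed to 5677, 6134, 5361 and 5354. Markers of other cells were present too. The 7 B cell markers summed to 1415, 1172, 1460 and 1478 fragments per 1000000 in the same order, 9 neutrophil markers to 5811, 7327, 5229 and 4945, 7 dendritic cell markers to 225, 191, 205 and 197, 7 stromal markers to 269, 249, 78.5 and 164 and 8 T and NK cell markers to 77.8, 75.2, 70.7 and 79.1. None of these markers was at 0 in any library. The 4 Y-linked genes summed to 3.60 and 2.23 fragments per 1000000 in the WT libraries and to 288 and 308 in the LNCKO libraries, which means that the effect of the genotype and of the sex of the animals cannot be told apart. The targeted *lncLy6c* was not analysed here, and the column names of both LNCKO libraries do not spell these conditions, so values for LNCKO depend on the sample titles being right.

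Promoter sequence was looked at for all members with an entry in the RefSeq promoter table (GRCm38.p6), which were 7 of the 10, with 10 annotated starts among them. The 150 bases upstream of each start were searched on both strands for the 10-base κB consensus. Of these 7 genes, 5 had a match at 1 start, so that 5 of the 10 windows held one, beside 4.60% of the 32851 windows of the same length in the table. The matching windows are printed because they show the κB letters at genes whose levels are described next. They lie at chr19:46304587-46304736 (plus strand) for Nfkb2, chr11:23770970-23771119 (minus strand) for Rel, chr12:55492648-55492797 (minus strand) for Nfkbia, chr17:45555550-45555699 (plus strand) for Nfkbie and chr10:19015411-19015560 (minus strand) for Tnfaip3. Each is written 5′ to 3′ on the gene's strand, and capitals mark the bases covered by a match, where matches on the 2 strands can overlap.

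Nfkb2: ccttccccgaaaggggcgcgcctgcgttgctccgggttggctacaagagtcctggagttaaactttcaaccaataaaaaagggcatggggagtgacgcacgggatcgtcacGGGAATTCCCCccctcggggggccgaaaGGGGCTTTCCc

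Rel: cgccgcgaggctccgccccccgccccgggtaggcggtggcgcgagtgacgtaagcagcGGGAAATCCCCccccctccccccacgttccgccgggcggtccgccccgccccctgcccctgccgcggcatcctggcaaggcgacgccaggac

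Nfkbia: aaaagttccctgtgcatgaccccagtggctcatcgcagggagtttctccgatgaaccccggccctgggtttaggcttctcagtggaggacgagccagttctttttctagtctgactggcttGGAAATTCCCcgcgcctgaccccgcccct

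Nfkbie: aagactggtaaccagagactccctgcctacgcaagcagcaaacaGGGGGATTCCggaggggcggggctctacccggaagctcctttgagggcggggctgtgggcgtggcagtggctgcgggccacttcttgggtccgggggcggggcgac

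Tnfaip3: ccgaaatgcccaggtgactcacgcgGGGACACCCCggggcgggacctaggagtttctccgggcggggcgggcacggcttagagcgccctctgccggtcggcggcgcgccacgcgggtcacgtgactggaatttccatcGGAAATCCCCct

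The window of Nfkb2 held matches at 3 places, those of Rel and Tnfaip3 at 2 and those of Nfkbia and Nfkbie at 1. Rela, Nfkbib, 2 further starts of Nfkb2 and 1 of Tnfaip3 had no match in this window. Such a match describes letters only, and binding was not measured in these libraries.

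On GRCm38 (GENCODE M21), the genes lie at chr3:135584655-135691547 (Nfkb1), chr19:46304320-46312385 (Nfkb2), chr19:5637483-5648130 (Rela), chr7:19606217-19629438 (Relb), chr11:23736847-23770970 (Rel), chr12:55489410-55492647 (Nfkbia), chr7:28758251-28767512 (Nfkbib), chr17:45555703-45563169 (Nfkbie), chr16:55811375-55838899 (Nfkbiz) and chr10:19000910-19015657 (Tnfaip3). Each value is for a gene as a whole, so none refers to a single exon or UTR. Whether fragments were counted over exons only or over introns too is not given in the sources used here.

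Levels of different genes were compared per kilobase of merged exons, since the deposited FPKM divides by the whole genomic span, introns included. This scale takes the fragments to come from exons, which was not tested. On this exon scale Nfkbia, which encodes IκBα, was the most abundant member in each library, at 65.4 and 58.5 FPKM in WT without and with butyrate and 64.0 and 71.1 in LNCKO. Rela, the main transactivating subunit, followed at 31.0, 28.4, 29.0 and 30.1, and Rel, which encodes c-Rel, at 22.3, 19.8, 20.6 and 21.1. Nfkb1 and Nfkb2 lay next to each other at 17.6 and 17.7 in WT control, and their ratio did not differ from 1 beyond counting error in any of the 4 libraries. The lowest levels were those of Tnfaip3, which encodes the ubiquitin-editing enzyme A20, at 7.25, 6.88, 8.83 and 9.15. Between these, Nfkbie and Nfkbib did not differ beyond counting error in WT control, LNCKO control and LNCKO butyrate, nor did Nfkbiz and Relb in WT control.

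In WT control, Rela made up 31.4% of the summed subunit level, Rel 22.5%, Nfkb2 18.0%, Nfkb1 17.8% and Relb 10.3%. These shares turn on the gene length chosen. When the longest coding transcript was used, Nfkb1 led with 34.8%, ahead of Rela with 23.7%, and on the deposited scale Nfkb2 led with 36.5% and Nfkb1 had 7.19%. Nfkbia stayed first of the 10 members in each of the 4 libraries on all 3 lengths. Tnfaip3 was last by merged exons and by the longest coding transcript, but ranked 6 of 10 on the deposited scale, where Relb was last. Ratios of 1 gene between libraries do not depend on the length.

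**Figure D1:**
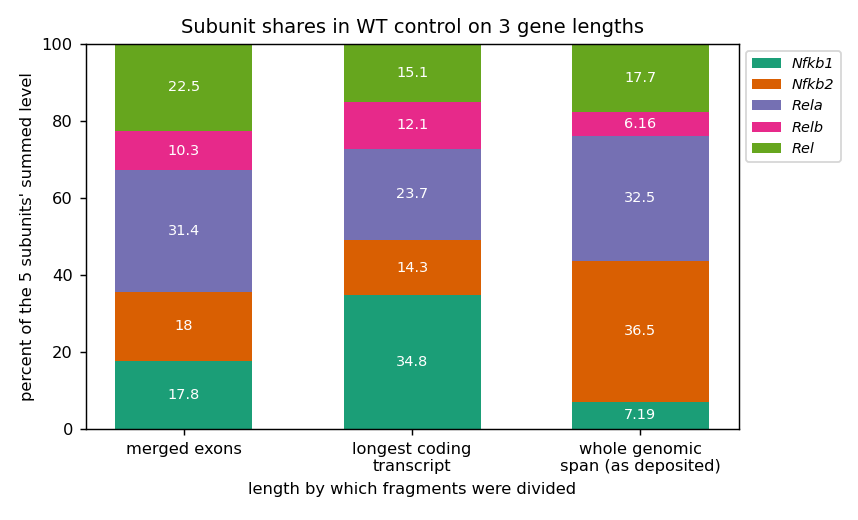
Share of each of the 5 subunits in their summed level in WT control, in percent, when recovered fragments were divided by merged exons, by the longest coding transcript or by the whole genomic span as deposited. The share of Nfkb1 runs from 7.19% to 34.8% and that of Nfkb2 from 14.3% to 36.5%.

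With butyrate, all 5 subunit genes were lower in the WT macrophages. The deposited FPKM of Nfkb1 was 1.99 in WT control and 1.65 in WT butyrate, compared with 1.85 in LNCKO control and 1.83 in LNCKO butyrate. Nfkb2 was listed at 10.1, 8.24, 9.28 and 9.50 in the same order. For both genes WT butyrate was the lowest library and WT control the highest. Rela was at 8.96, 8.20, 8.38 and 8.70, Relb at 1.70, 1.501, 1.64 and 1.67, and Rel at 4.87, 4.33, 4.51 and 4.61. The order of the libraries was the same for all 5 subunits at both ends, with WT control on top and WT butyrate at the bottom. How many of all genes had this order was not counted. Of all genes tested, 61.9% were lower in WT butyrate than in WT control. In LNCKO against WT, 43.5% were lower without butyrate and 61.7% were higher with it.

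**Figure D2:**
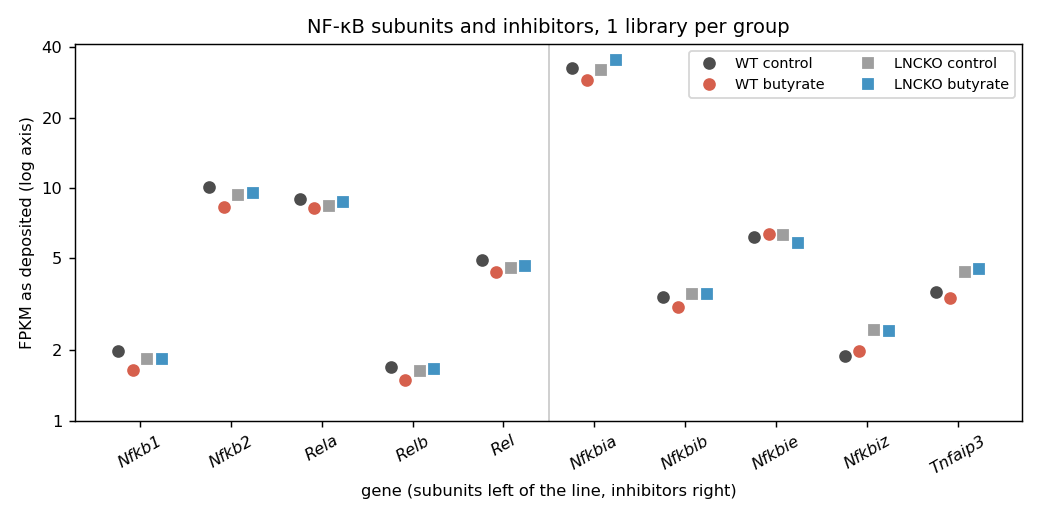
Deposited FPKM of the 10 genes (log axis) in each of the 4 libraries, with 1 point per library. WT butyrate is the lowest point for the 5 subunits, Nfkbia, Nfkbib and Tnfaip3, whereas Nfkbiz and Tnfaip3 are higher in both LNCKO libraries than in both WT libraries.

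On the log2 scale (fragments per 1000000, 1 fragment added), the WT change with butyrate was largest for Nfkb2, at -0.29 (95% counting interval -0.35 to -0.23), or 18.3% lower. Nfkb1 was at -0.27 (-0.31 to -0.23), Relb at -0.18 (-0.27 to -0.09), Rel at -0.17 (-0.21 to -0.13) and Rela at -0.13 (-0.18 to -0.07). The median over the subunits was -0.18, against -0.06 over the 10440 genes that had a mean of at least 200 fragments. These values lay inside the range of other genes, since 12.6% of all genes tested had a change as low as that of Nfkb2 or lower, and 35.1% as low as that of Rela.

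Among the inhibitors, the 3 IκB genes went apart with butyrate in WT. Nfkbia was listed at 32.5 and 29.1 FPKM in WT without and with butyrate and at 31.8 and 35.3 in LNCKO, and its WT change was -0.16 (-0.21 to -0.11). For Nfkbib, which encodes IκBβ, the values were 3.40, 3.08, 3.51 and 3.51, with a WT change of -0.14 (-0.24 to -0.05). Nfkbie, the gene of IκBε, was at 6.16, 6.33, 6.27 and 5.78, and its WT change of 0.04 had an interval that included 0 (-0.04 to 0.12). Nfkbiz encodes IκBζ, a nuclear IκB that works as a cofactor at some target genes, and was at 1.88, 1.99, 2.44 and 2.43, with a WT change of 0.08 (0.0027 to 0.15). Tnfaip3 was at 3.55, 3.37, 4.33 and 4.48, with a WT change of -0.07 (-0.15 to -0.00075).

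None of the 10 genes passed 1.5-fold with butyrate in WT, where 2.34% of all genes tested were higher and 2.25% lower by that much. At 1.1-fold, a limit added after the values had been seen, 6 of the 10 were lower (Nfkb1, Nfkb2, Relb, Rel, Nfkbia and Nfkbib) and 0 higher, beside 33.1% and 18.3% of all genes. By sign alone, 8 of the 10 were lower, as were 61.9% of all genes. When libraries were instead scaled to a median ratio of 1 over all genes, the median of all genes moved from -0.06 to 0.00, all 5 subunits were still below 0 (from -0.23 to -0.07), and only Nfkb2 and Nfkb1 stayed past 1.1-fold, beside 23.3% of all genes lower. In bulk RNA, fewer cells that express a gene and less of its RNA per cell cannot be told apart. WT butyrate was also the library with the lowest summed B cell and dendritic cell markers and the highest summed neutrophil markers: all 7 B cell markers were lower than in WT control, by log2 changes from -0.87 (Vpreb3) to -0.09 (Ms4a1), and their part in the subunit values was not tested.

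In LNCKO macrophages, the subunits differed little with butyrate. The log2 ratio was -0.01 (-0.05 to 0.03) for Nfkb1, 0.03 (-0.03 to 0.09) for Nfkb2, 0.03 (-0.06 to 0.11) for Relb, 0.03 (-0.01 to 0.07) for Rel and 0.05 (-0.00078 to 0.11) for Rela, and all 5 intervals included 0. Nfkbia was higher with butyrate by 0.15 (0.10 to 0.20), or 11.0%, and Nfkbie was lower by a log2 change of -0.12 (-0.20 to -0.04). The intervals of Nfkbib (-0.00), Nfkbiz (-0.01) and Tnfaip3 (0.05) included 0. The median over the 10 genes was 0.03, against -0.02 over all genes. Past 1.5-fold there were again 0 of 10, with 1.02% of all genes higher and 0.489% lower, and past 1.1-fold only Nfkbia was higher and 0 were lower, with 11.9% and 17.4% of all genes. Of the markers, 6 of 7 stromal (median 1.11) and all 3 erythroid ones tested (median 1.49) were at least 1.5-fold higher with butyrate, Lyz2 was at -0.89, and their part in these values was not tested.

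**Figure D3:**
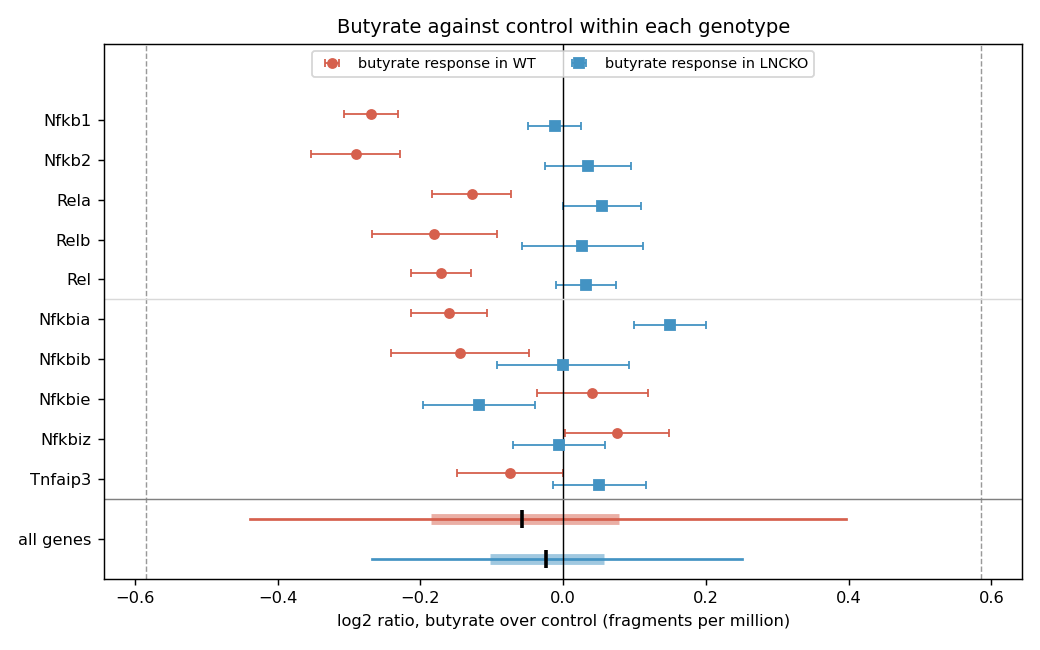
Log2 ratio of butyrate over control for each gene in WT (circles) and LNCKO (squares), with exact 95% intervals for counting error. The bottom rows give all 10440 genes tested as median (tick), middle 50% (thick line) and 5th to 95th percentile (thin line), and dashed lines mark 1.5-fold. All 5 subunits lie at or below -0.13 in WT and between -0.01 and 0.05 in LNCKO.

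The response in WT minus the response in LNCKO was below 0 for 8 of the 10 genes, as it was for 57.2% of all genes tested. It was -0.33 (-0.41 to -0.24) for Nfkb2, -0.26 (-0.31 to -0.20) for Nfkb1, -0.21 (-0.33 to -0.09) for Relb, -0.20 (-0.26 to -0.14) for Rel and -0.18 (-0.26 to -0.10) for Rela. Nfkbia had a difference of -0.31 (-0.38 to -0.24) and was the one gene whose changes lay on opposite sides of 0 with both intervals off 0. Nfkbib differed by -0.14 (-0.28 to -0.01) and Tnfaip3 by -0.13 (-0.22 to -0.03). Nfkbie went the other way, at 0.16 (0.05 to 0.27), and the value of Nfkbiz was 0.08 (-0.01 to 0.18). All 4 libraries enter each of these values, so the difference shares its libraries with the comparisons above and below, and with 1 library per group it was not tested. The median over the 10 genes was -0.19, against -0.04 over all genes. None passed 1.5-fold (3.05% of all genes higher, 3.27% lower). At 1.1-fold, 7 were lower and Nfkbie was higher, beside 31.8% and 22.4% of all genes, and under median ratio scaling 6 were lower and Nfkbie higher, beside 26.5% and 26.3%. For the markers, all 3 erythroid markers tested (median -1.40) and 5 of 7 stromal markers (median -1.07) were past 1.5-fold lower in this difference, the neutrophil markers had a median of 0.49, and their part in these values was not tested.

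Without butyrate, Nfkbiz and Tnfaip3 had the largest genotype differences of the 10 genes. Compared with WT control, LNCKO control had more Nfkbiz by 0.38 (0.30 to 0.45), which is 29.7%, and more Tnfaip3 by 0.28 (0.21 to 0.36), which is 21.8%. Among all genes tested, 97.0% had a difference as low as that of Nfkbiz or lower. The 5 subunits were all slightly lower in LNCKO, as were 43.5% of all genes tested. They ran from -0.12 (-0.18 to -0.06) for Nfkb2 to -0.05 (-0.14 to 0.03) for Relb, with a median of -0.11 against 0.02 over all genes. Nfkbia (-0.03), Nfkbib (0.05) and Nfkbie (0.03) had intervals that included 0. None of the 10 genes passed 1.5-fold (0.967% of all genes higher, 1.19% lower), while Nfkbiz and Tnfaip3 were the 2 past 1.1-fold higher and 0 were lower, beside 18.9% and 12.9% of all genes. Of the stromal markers, 6 of 7 were at least 1.5-fold lower in LNCKO control than in WT control, with a median of -1.84, and all 3 erythroid markers tested were at least 1.5-fold higher, with a median of 1.93. Their part in these values was not tested.

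With butyrate, 9 of the 10 genes were higher in LNCKO than in WT, as were 61.7% of all genes tested. Tnfaip3 led with 0.41 (0.34 to 0.48), or 32.9%, followed by Nfkbiz with 0.29 (0.23 to 0.36) and Nfkbia with 0.28 (0.23 to 0.33). Nfkb2 was higher by 0.21 (0.14 to 0.27), Nfkbib by 0.19 (0.10 to 0.28), Relb by 0.15 (0.07 to 0.24), Nfkb1 by 0.15 (0.11 to 0.19), Rel by 0.09 (0.05 to 0.13) and Rela by 0.09 (0.03 to 0.14). Nfkbie alone was lower, at -0.13 (-0.21 to -0.06). The median was 0.17, against 0.06 over all genes. None passed 1.5-fold (2.64% of all genes higher, 2.17% lower), and 7 were at least 1.1-fold higher and 0 lower, beside 31.9% and 18.0% of all genes. Under median ratio scaling 4 remained at least 1.1-fold higher (Tnfaip3, Nfkbiz, Nfkbia and Nfkb2), and Nfkbie was past 1.1-fold lower, beside 22.4% and 24.2% of all genes. The 7 B cell markers were higher in LNCKO butyrate than in WT butyrate as well, with a median of 0.37, 8 of 9 neutrophil markers were at least 1.1-fold lower, and all 3 erythroid markers tested were at least 1.5-fold higher, with a median of 3.35. Their part in these values was not tested.

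**Figure D4:**
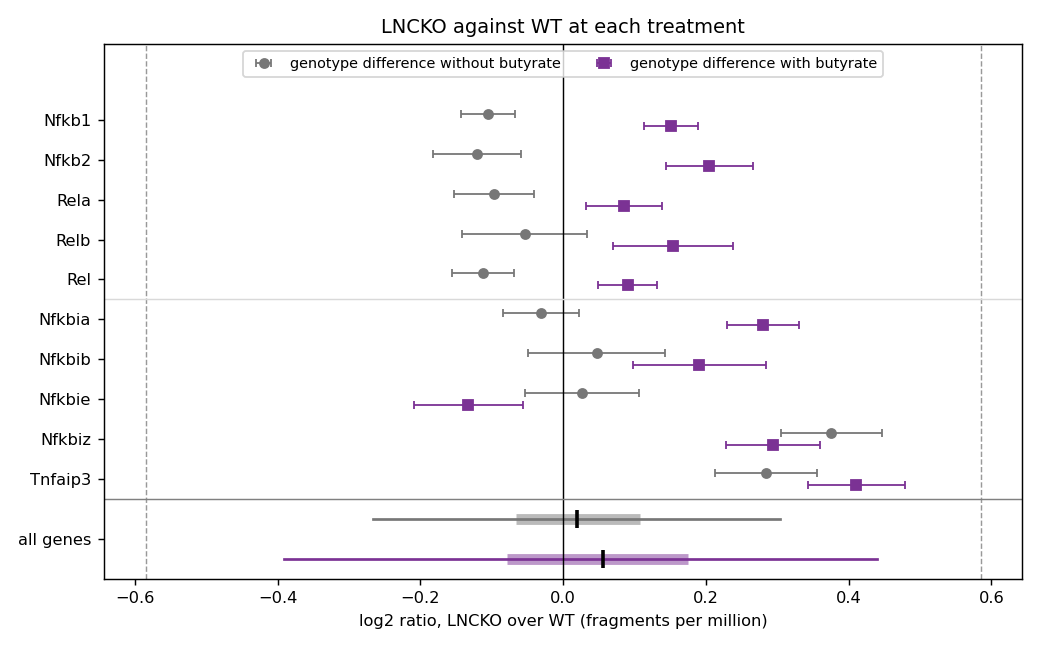
Log2 ratio of LNCKO over WT for each gene without butyrate (circles) and with butyrate (squares), with exact 95% intervals for counting error, and all genes tested in the bottom rows as median, middle 50% and 5th to 95th percentile. Tnfaip3 and Nfkbiz are at or above 0.28 at both treatments, and the subunits are below 0 without butyrate and above 0 with it.

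Within a library, the balance of inhibitor and subunit RNA can be read without any scaling between libraries. Protein was not measured in these libraries. Per exon length, Nfkbia stood to Rela as 2.11 (2.03 to 2.19) in WT control, 2.06 (1.98 to 2.14) in WT butyrate, 2.21 (2.12 to 2.29) in LNCKO control and 2.36 (2.28 to 2.44) in LNCKO butyrate. The interval of LNCKO butyrate overlapped that of LNCKO control and lay above those of both WT libraries, which overlapped each other and that of LNCKO control. Tnfaip3 to Rela was 0.233, 0.242, 0.304 and 0.303, which separated the genotypes and not the treatments. Nfkbiz to Nfkb1 was 0.587 in WT control and 0.746, 0.820 and 0.823 in the other libraries. This ratio does not measure inhibition alone, since IκBζ also works as a cofactor. Nfkb2 to Relb, the pair of the non-canonical pathway, ranged from 1.62 to 1.75 with overlapping intervals in all 4 libraries. Overlap of such intervals does not show that the ratios are equal within counting error. The summed level of the 3 cytoplasmic IκB genes over that of the 5 subunits was 0.961, 1.01, 1.02 and 1.06. The size of these balances depends on the length chosen, and in WT control the last was 0.682 by the longest coding transcript and 1.52 by genomic span, and Nfkbiz to Nfkb1 was 0.244 and 0.949. The fold of such a pair of genes between libraries does not depend on it.

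The other genes of the pathway were read from lists of kinases, adaptors, receptors, ligands, further inhibitors and targets. Of 10 kinase genes 9 could be tested, and 0 passed 1.5-fold in any of the 4 comparisons. Their median with butyrate was -0.12 in WT and -0.02 in LNCKO. Tbk1, a kinase related to the IκB kinases, was at -0.22 in WT and 0.02 in LNCKO, Map3k7, which encodes TAK1, at -0.20 and -0.03, and Chuk, which encodes the IκB kinase IKKα, at -0.17 and -0.00. All 3 were higher in LNCKO butyrate than in WT butyrate, by 0.23, 0.12 and 0.25, but they were named for their large changes. The kinase list had a median of 0.07 in this comparison, against 0.06 over all genes. At 1.1-fold, 2 of the 9 were higher and 0 lower, beside 31.9% and 18.0% of all genes.

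Adaptors and ubiquitin ligases showed the same order of sizes, with 17 of 18 tested, a median of -0.13 in WT and 0.02 in LNCKO, and 0 past 1.5-fold in the 4 comparisons. Traf6, a ubiquitin ligase downstream of Toll-like and interleukin-1 receptors, was at -0.31 in WT and 0.03 in LNCKO, and it was 0.38 higher in LNCKO butyrate than in WT butyrate. Bcl10 and Malt1, partners in the CARD complex that feeds the pathway, were at -0.32 and -0.28 in WT and at 0.03 and -0.02 in LNCKO. At 1.1-fold, 6 of the 17 adaptors and 4 of the 9 kinases were lower in WT with butyrate, next to the 33.1% of all genes given above.

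Both other IκB genes were tested. Fragments listed by gene from here on are recovered counts, not scaled to the library totals, whereas the log2 ratios are scaled. In the order of groups used above, Nfkbid, which encodes the nuclear IκBNS, was at 2141, 1980, 2453 and 2892 fragments. It was higher in LNCKO by 0.28 without and 0.40 with butyrate. Its log2 ratio with butyrate was -0.18 in WT and -0.06 in LNCKO. Bcl3 had log2 ratios with butyrate of 0.02 in WT and 0.10 in LNCKO. For the 10 further negative regulators the median was -0.06 in WT and -0.01 in LNCKO, and 0 passed 1.5-fold in the 4 comparisons. Among them, Zc3h12a, the gene of the RNase regnase-1, was at -0.22 in WT, Irak3, an inhibitory kinase homologue, at -0.21 in LNCKO, and Tnip2, a partner of A20, differed by -0.18 between LNCKO control and WT control.

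Of 8 receptor genes 6 were tested, with medians of 0.00 in WT and -0.08 in LNCKO and 0 past 1.5-fold in the 4 comparisons. Cd40, a TNF receptor family member that engages the non-canonical pathway, had 1649, 1202, 1410 and 1744 fragments in the order of groups used above. WT butyrate was lowest, at -0.53 against WT control, and the LNCKO change with butyrate was 0.01. Tnfrsf1b, which encodes TNF receptor 2, was at 0.26 in WT and 0.04 in LNCKO, and Tlr2 was lower in LNCKO, at -0.18 without and -0.23 with butyrate. Of the ligands, 4 of 8 were tested and the others lay under the filter, with 0 past 1.5-fold in the 4 comparisons. Tnf had 829, 652, 711 and 761 fragments, a WT change of -0.42 and an LNCKO change of -0.20. Ltb, which encodes lymphotoxin β, was at -0.23 and 0.02, and Il1b at 0.38 and 0.13. In WT with butyrate, the B cell markers had a median of -0.25 and the neutrophil markers one of 0.40. Their part in the values of these receptors and ligands was not tested.

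Target genes, among them Tnf and Il1b of the ligand list, spread over a wider range than the members. Of 27 in the list 25 were tested, and with butyrate in WT 5 were at least 1.5-fold higher and 2 lower, and in LNCKO 0 were past it in either direction, a difference that was not tested. The shares of all genes past that limit were 2.34% (higher) and 2.25% (lower) in WT, and 1.02% and 0.489% in LNCKO. On log2(FPKM + 1), 3 targets were higher and 0 lower in WT and 0 in LNCKO. Between the genotypes, 3 were higher and 0 lower in LNCKO without butyrate, and 3 were higher and 2 lower with it, beside 0.967% and 1.19% of all genes without butyrate and 2.64% and 2.17% with it, and on log2(FPKM + 1) 0 were higher without it. The median of the targets was -0.00 in WT and 0.06 in LNCKO, so that the list as a whole had no single direction. Il6 was near the filter, with 146, 82, 284 and 332 fragments, and was higher in LNCKO by 1.03 without and 1.86 with butyrate. With butyrate it changed by -0.89 in WT and -0.07 in LNCKO on the log2 scale. Nos2, the inducible nitric oxide synthase, had 400, 1178, 1247 and 1377 fragments, with WT control apart from the other libraries. Its log2 change with butyrate was 1.49 in WT and -0.15 in LNCKO. Ccl5, a chemokine for T cells and monocytes, had 21719, 57095, 21612 and 28863 fragments, with WT butyrate apart, and its log2 change with butyrate was 1.32 in WT and 0.12 in LNCKO.

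**Figure D5:**
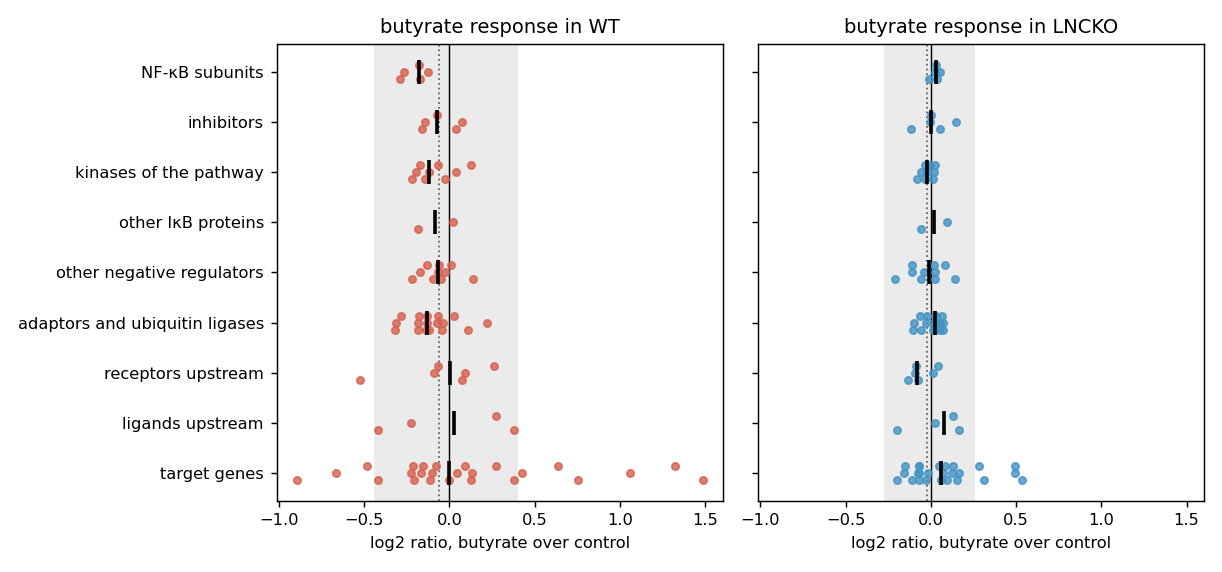
Log2 ratio of butyrate over control for each tested gene of the members and the 7 pathway lists (points) with the list medians (ticks), in WT on the left and LNCKO on the right. Grey bands span the 5th to 95th percentile of all genes tested and the dotted line is their median. The targets Nos2 and Ccl5 lie at 1.49 and 1.32 in WT and at -0.15 and 0.12 in LNCKO.

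Overlapping genes limit a few of these values, since whether counting used strand is not given in the sources used here. Nfkb2 shares 299 bases with Psd and Nfkbib shares 778 bases with Sirt2, both on the opposite strand and both listed. Reads from these stretches cannot be assigned to 1 gene without strand. The other listed genes of the table did not overlap a member. Annotated genes that are not listed overlapped as well. On the opposite strand, AC114539.1 shares 1292 bases with Nfkb2 and Ccer2 shares 718 with Nfkbib. Gm43430 shares 3897 bases with Nfkb1 on the same strand, where strand would not tell the 2 apart.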

How the data were processed

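RNA sequencing was performed on macrophages grown from bone marrow in 4 groups with 1 library each. The authors deposited FPKM values for 16375 genes. The submitters' processing notes name GRCm38/mm10, STAR 2.5.0c, Picard 1.126, bedtools 2.17.0, HTSeq 0.6.0 and DESeq2 3.0 without their roles. Labels and methods differ on extraction and platform (RNeasy, TruSeq and Illumina against TRIzol and MGISEQ-2000).

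For each library, the total was taken as the number that turns FPKM into whole fragments over the gene's genomic span (GENCODE M21, GRCm38). Within 0.05 of a fragment, 16112 of 16342 matched genes (98.6%) were whole in all 4 libraries, against 7.48% over merged exons, and all 10 members were whole. Totals ranged from 53363944 to 65521714 fragments. Fragments are read pairs without molecular identifiers. Of the genes listed, 262 had no symbol and 57 shared one. Genes of the lists that were not whole on their span (Ikbke, Traf5 and Tnfrsf11a) or were under the filter were not tested.

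Changes are log2 ratios of (fragments + 1) per 1000000 for genes with a mean of at least 200 fragments (10440 genes), and 1.5-fold was the limit for a gene to be called. The 1.1-fold limit, the longest coding transcript and 1.1-fold with median ratio scaling were chosen after seeing the data. Other alternatives were log2(FPKM + 1), log2(FPKM + 0.1), median ratio scaling, no filter, a mean of at least 1000 fragments, 2-fold and the genomic span as length. Intervals for a ratio of 2 libraries, or of 2 genes in 1 library, are exact and conditional on the sum (Clopper-Pearson, 95%), and those for a difference of responses use the large-count Poisson approximation, so all cover counting error only. No test was run, as each group had 1 library. Text names all members and, of each pathway list, the 3 tested genes with the largest change in any of the 4 comparisons, and cell type markers only beside a result. Members and lists were chosen with earlier results of these data known. The steps were tested on simulated data. Python 3.11.15, numpy 2.4.6, pandas 2.3.3, scipy 1.17.1 and matplotlib 3.10.9 were used.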

Additional observations from a re-analysis of the deposited data

Results flagged for a closer look

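Nfkbia was flagged because its butyrate changes lay on opposite sides of 0 in the genotypes, at -0.16 in WT and 0.15 in LNCKO, with both counting intervals off 0. The WT change minus the LNCKO change was -0.31 (95% counting interval -0.38 to -0.24), or -0.28 when libraries were scaled by their median ratio. With 1 library per group the difference was not tested. Nfkbia had 5938, 5579, 5502 and 7496 fragments in WT without and with butyrate and in LNCKO without and with it.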

How the results depend on the processing

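No member passed 1.5-fold in the 5 comparisons, and this count of 0 was the same under median ratio scaling. It was also 0 at 2-fold, on log2(FPKM + 1) and log2(FPKM + 0.1), with no filter and with a mean of at least 1000 fragments. Most of these settings could not raise it. The 2-fold limit is stricter, both filters keep the members' values as they are, and adding to FPKM draws ratios of 2 libraries toward 1. At 1.1-fold, with butyrate 6 members were lower in WT and 1 was higher in LNCKO, in LNCKO against WT 2 were higher without and 7 with butyrate, and in the WT minus LNCKO response 7 were lower and 1 higher. At 1.1-fold with median ratio scaling these counts were 2, 1, 2, 4, 6 and 1, and 1 member was lower in LNCKO at each treatment. Of 50 member changes, 3 changed sign under median ratio scaling, all in LNCKO with butyrate (Nfkb1 0.01, Nfkbib 0.02, Nfkbiz 0.02), none of them with a counting interval off 0. Under the other settings 0 changed sign, which for most changes is no check of stability. Fold limits and filters leave member changes as they are, and adding to FPKM keeps the direction between 2 libraries. The medians of the 10 members moved by less than 0.1 under each setting, and fold limits and these filters cannot move them. Shares of the summed subunits in WT control depended on length: by genomic span they were 7.19% (Nfkb1), 36.5% (Nfkb2), 32.5% (Rela), 6.16% (Relb) and 17.7% (Rel), and by the longest coding transcript 34.8%, 14.3%, 23.7%, 12.1% and 15.1%.

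Over all genes, median ratio scaling changed the split of 1.5-fold calls from 244 higher and 235 lower to 309 and 184 for butyrate in WT, and from 276 and 227 to 215 and 287 for LNCKO against WT with butyrate. Other settings moved the counts of all genes by over 1.5 times, for butyrate in WT to 54 higher and 30 lower on log2(FPKM + 1), 133 and 117 on log2(FPKM + 0.1), 1898 and 1480 with no filter (16112 genes), 59 and 80 with a mean of at least 1000 fragments (7763 genes) and 61 and 54 at 2-fold. No library could be left out, since each group had 1. No paired analysis was possible because the result comes from no test and the groups compared share fewer than 2 replicate numbers. Each member had at least 1686 fragments in each library, and the error between replicates is not known.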
